A study of Mus musculus with 4 samples.

Results

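Mouse chromosome 11 held 1061 of the 15328 accessible regions (6.92%) found in Chd7-knockout and wild-type G1ER cells. The regions were all peaks of 4 deposited lists, merged wherever peaks overlapped or touched, and kept if they lay on chromosome 11. The chromosome was chosen because it held more regions called in wild type alone than in knockout alone. Every value below that sets the genotypes against each other is therefore a description and supports nothing. The question was whether a segment of the chromosome carried the wild-type excess, so calls and summit values were laid out in 25 fixed bins of 5 Mb from position 0, with bin 1 first.

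The study used ATAC-seq, in which a transposase inserts adapters into open DNA, on G1ER cells, a mouse erythroblast line. G1ER cells lack a working Gata1 gene and carry GATA-1 fused to the hormone-binding part of the oestrogen receptor, and both genotypes share this background. Chd7-/- knockout cells (KO, 2 libraries) were set against wild-type cells (WT, 2 libraries), each library from 50000 cells grown with erythropoietin and stem cell factor medium and given no treatment. In each genotype the first replicate carries the time label 1 h and the second carries 2 h, so replicate number and labelled time cannot be told apart. Both KO descriptions carry the code E9, and the labels do not say whether it names 1 clone. The labels do not say whether the libraries of a genotype are separate cultures, and the spread between replicates may then be only technical. In bulk libraries, a region open in fewer cells and a region less open in each cell cannot be told apart.

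CHD7 is an ATP-dependent chromatin remodeller that slides nucleosomes and is found mainly at enhancers and at many promoters. Promoters of widely used genes are open in most cell types, whereas distal elements open more selectively with cell type. Mouse chromosome 11 is rich in genes and carries the alpha-globin locus, the Hoxb cluster and the Mir144 and Mir451a genes of red cells.

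The lists held 12443 and 11376 nuclear peaks in the KO libraries and 11084 and 12043 in the WT libraries (replicates 1 and 2). Of these, 842 and 810 lay on chromosome 11 in KO, against 822 and 868 in WT. The share of nuclear peaks on chromosome 11 was 6.94% ± 0.250 in KO and 7.31% ± 0.147 in WT (SD, n = 2 each). The lists give no read depth, but the whole-number fragment pileup at each summit could be recovered for all but 1 nuclear peak per library. The median pileup on chromosome 11 was 20 and 18.5 fragments in KO and 19 and 22 in WT. No peak was linked to Chd7 itself in any of the 4 lists, so they do not check the knockout. Of 11 erythroblast marker genes, 7 had a region called in all 4 libraries, including Gata1, Klf1, Epor and Tfrc. Of 5 granulocyte or macrophage markers and 5 T or B cell markers, 0 had a region, and of 5 megakaryocyte markers 3 had one in all 4 libraries. Hbb-b1, Hbb-bs, Hba-a1 and Slc4a1, erythroblast markers too, had 0 regions in these lists.

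The sequences below are start windows of genes whose start lay in a region called in one genotype alone, shown because these regions carry the difference in calls. A region was KO-only when both KO libraries and neither WT library called it, and WT-only when the reverse held. Windows came from RefSeq (build GRCm38.p6), run from 250 bases before to 50 bases after a start, and are printed 5′ to 3′ along the gene's strand. Of 1609 protein-coding genes on chromosome 11, 1271 had a window, with 1561 windows in all. KO-only windows are Fbxl20 (chr11:98149567-98149866, minus strand), a substrate receptor of an SCF ubiquitin ligase, and Ccdc137 (chr11:120457879-120458178, plus strand). WT-only windows are Naglu (chr11:101069844-101070143, plus strand), a lysosomal enzyme that breaks down heparan sulphate, and Hus1 (chr11:9011142-9011441, minus strand), a subunit of the 9-1-1 DNA damage clamp. They are also Ypel2 (chr11:86993713-86994012, minus strand), Rnf135 (chr11:80183619-80183918, plus strand), a RING-type ubiquitin ligase, and Ankrd40 (chr11:94327751-94328050, plus strand). Capitals mark any of the words searched, as written or as their reverse complement.
Fbxl20: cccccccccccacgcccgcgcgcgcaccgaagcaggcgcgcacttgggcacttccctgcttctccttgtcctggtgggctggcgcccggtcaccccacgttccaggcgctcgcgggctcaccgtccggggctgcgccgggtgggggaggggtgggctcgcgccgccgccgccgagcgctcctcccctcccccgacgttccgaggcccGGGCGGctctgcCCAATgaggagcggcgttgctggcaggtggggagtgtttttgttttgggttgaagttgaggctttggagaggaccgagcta
Ccdc137: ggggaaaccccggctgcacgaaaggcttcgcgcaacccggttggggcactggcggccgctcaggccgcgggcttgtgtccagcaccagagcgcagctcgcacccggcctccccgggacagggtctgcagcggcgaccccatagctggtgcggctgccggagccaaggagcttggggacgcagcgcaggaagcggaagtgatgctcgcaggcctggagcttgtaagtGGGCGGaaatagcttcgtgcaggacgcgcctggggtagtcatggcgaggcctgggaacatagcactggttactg
Naglu: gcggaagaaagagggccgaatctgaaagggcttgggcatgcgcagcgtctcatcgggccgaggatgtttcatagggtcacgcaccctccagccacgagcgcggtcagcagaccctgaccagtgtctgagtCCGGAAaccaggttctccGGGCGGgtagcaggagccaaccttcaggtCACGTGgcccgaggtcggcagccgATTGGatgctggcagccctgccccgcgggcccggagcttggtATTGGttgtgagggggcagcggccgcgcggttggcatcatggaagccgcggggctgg
Hus1: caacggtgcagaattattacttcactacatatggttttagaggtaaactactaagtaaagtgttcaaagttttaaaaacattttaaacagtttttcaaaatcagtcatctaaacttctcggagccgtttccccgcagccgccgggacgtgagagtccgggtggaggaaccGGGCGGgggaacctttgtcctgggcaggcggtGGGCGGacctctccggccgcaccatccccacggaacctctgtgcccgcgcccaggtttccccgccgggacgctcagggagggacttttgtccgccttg
Ypel2: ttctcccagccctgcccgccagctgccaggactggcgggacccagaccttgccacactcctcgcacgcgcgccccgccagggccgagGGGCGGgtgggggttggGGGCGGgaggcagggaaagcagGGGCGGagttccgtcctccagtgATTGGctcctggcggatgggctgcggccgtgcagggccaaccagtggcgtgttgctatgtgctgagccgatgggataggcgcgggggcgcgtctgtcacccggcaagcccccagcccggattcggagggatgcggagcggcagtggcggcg
Rnf135: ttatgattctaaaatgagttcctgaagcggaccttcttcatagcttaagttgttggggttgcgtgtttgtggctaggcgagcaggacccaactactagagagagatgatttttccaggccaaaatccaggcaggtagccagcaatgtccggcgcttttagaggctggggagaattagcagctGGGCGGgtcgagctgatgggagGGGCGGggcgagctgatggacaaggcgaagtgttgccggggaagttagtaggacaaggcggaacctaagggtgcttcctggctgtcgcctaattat
Ankrd40: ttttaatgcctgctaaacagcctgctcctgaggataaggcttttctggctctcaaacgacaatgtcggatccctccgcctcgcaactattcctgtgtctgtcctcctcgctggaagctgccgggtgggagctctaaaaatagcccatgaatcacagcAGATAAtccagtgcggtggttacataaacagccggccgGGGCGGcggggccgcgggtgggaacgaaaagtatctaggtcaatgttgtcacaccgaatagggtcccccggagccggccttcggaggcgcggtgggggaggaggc

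The words were searched on both strands and overlapping matches were all kept. They were GGGCGG (the GC box), CCAAT (bound by NF-Y), CCGGAA (ETS factors), TGTGGT (RUNX factors), TGACGT (part of the cyclic AMP response element), and CACGTG (an E-box). For GATA factors, any of 4 words counted, namely AGATAA with its relatives TGATAA and AGATAG, as well as the word TGATAG. All 4 windows in KO-only regions and 13 of 15 windows in WT-only regions held GGGCGG, against 75.2% of the 549 windows in regions called in all 4 libraries. The word stood in 46.2% of the 21237 windows of all chromosomes and in 51.2% of those on chromosome 11. CCGGAA stood in 0 of 4 KO-only windows, 4 of 15 WT-only windows and 34.8% of windows in shared regions, with 18.7% over all chromosomes. A GATA word stood in 0 of 4 KO-only windows, in 2 of 15 WT-only windows and in 13.8% of shared ones, with 26.0% over all. TGTGGT stood in 0 windows of either class and in 11.7% of shared ones, with 15.0% over all. CCAAT stood in 1 of 4 KO-only and 3 of 15 WT-only windows (38.2% over all chromosomes), CACGTG in 0 and 1 (7.84%), and TGACGT in 0 and 0 (8.49%). The median GC content was 68.5% in KO-only windows, 61.7% in WT-only windows, 63.0% in windows of shared regions and 53.7% in the 876 chromosome 11 windows with no call. The 7 printed windows show that range, from the 53.3% GC of Rnf135 to the 72.7% of Ypel2. A match is a string of letters and not a bound site.

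Chromosome 11 held 18 KO-only regions (1.70%; 95% exact binomial interval 1.01 to 2.67%) and 36 WT-only regions (3.39%; 2.39 to 4.67%). Over all chromosomes the shares were 2.71% KO-only and 2.25% WT-only, and chromosomes other than 11 held 397 and 309. WT-only regions also outnumbered KO-only regions on chromosomes 5, 7, 8, 10, 12 and 15, by at most 4. The WT-only share was highest on chromosome 14 (3.60%), which held 20 regions of each class. The intervals cover counting error only. Since the chromosome was picked by these counts, nothing is read from them. A further 628 regions (59.2%; 56.8% over all chromosomes) were called in all 4 libraries, 117 in 3 libraries and 199 in 1. Among the regions called in 3 libraries, 24 lacked a call in KO replicate 1 and 39 in KO replicate 2, against 37 in WT replicate 1 and 17 in WT replicate 2.

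The counts were also taken with 1 library left out, which loosens both classes. A region then counted for that genotype with 1 call, and for the other genotype with 1 missing call. Both counts rise by this rule and are not the same measure as those above. Without KO replicate 2 there were 77 KO-only and 60 WT-only regions, the opposite direction, and the other chromosomes then held 1589 and 559. Without KO replicate 1 the chromosome 11 counts were 62 and 75. Without WT replicate 1 they were 33 and 96, and without WT replicate 2 they were 56 and 78. A threshold of at least 5 on −log10 q in both libraries of the calling genotype kept 5 KO-only and 17 WT-only regions.

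**Figure D1:**
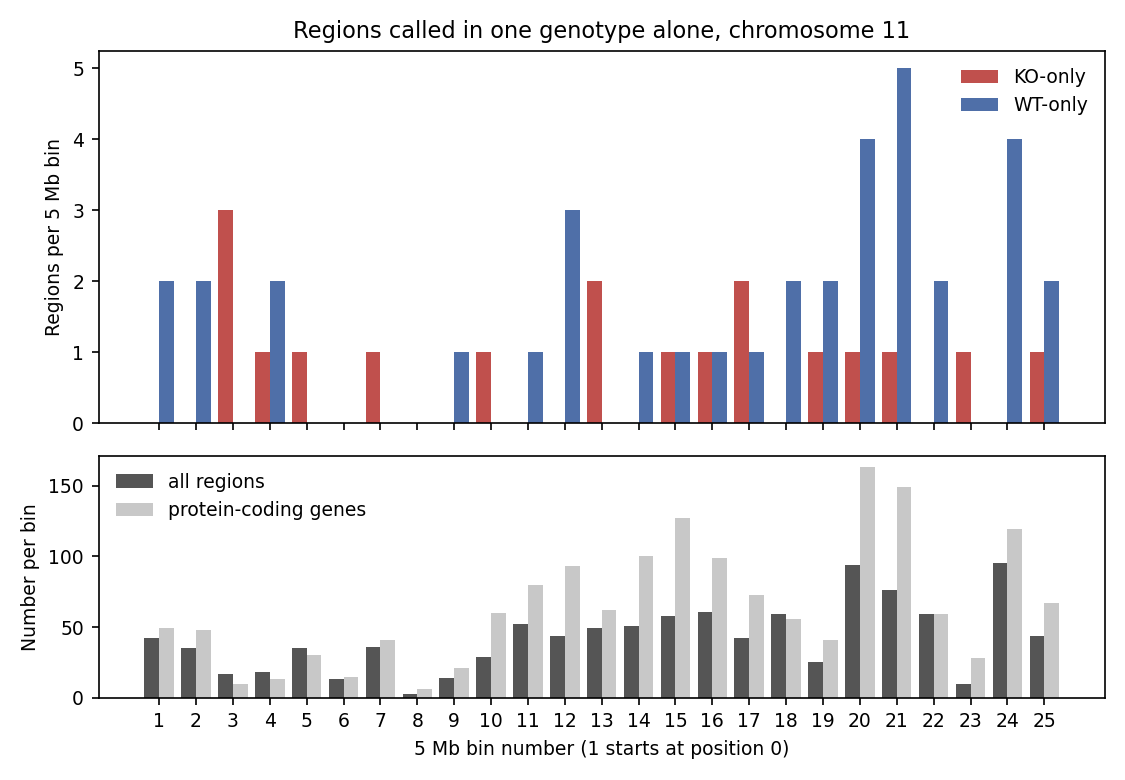
Upper panel, number of KO-only (red) and WT-only (blue) regions in each 5 Mb bin of chromosome 11, lower panel, all regions and protein-coding genes in the same bins. WT-only regions stood in 17 of 25 bins, with the highest counts of 4, 5 and 4 in bins 20, 21 and 24, and KO-only regions stood in 14 bins.

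WT-only regions stood in many bins, and most of their excess over KO-only regions lay in the last 6 bins. WT-only regions outnumbered KO-only regions in 14 bins, KO-only outnumbered WT-only in 7, and the counts were equal in 4, of which 2 held neither. The largest difference between the classes was 4 regions and was tied between bin 21 (from 100 Mb), with 1 KO-only and 5 WT-only regions, and bin 24 (115 to 120 Mb), with 0 and 4. Bin 20 (95 to 100 Mb) had 1 KO-only and 4 WT-only regions, and bin 12 (55 to 60 Mb) had 0 and 3. The opposite extreme was bin 3 (10 to 15 Mb), with 3 KO-only and 0 WT-only regions. Leaving out bin 21 left 17 KO-only and 31 WT-only regions.

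Bins 20 to 25, a stretch picked after the counts were seen, held 4 KO-only and 17 WT-only regions among 378 (1.06% and 4.50%). The rest of the chromosome held 14 KO-only and 19 WT-only regions among 683 (2.05% and 2.78%). With peaks within 2 kb of each other merged, a setting added after seeing the data, the stretch held 2 and 14 and the rest held 14 and 13. By the looser rule, the stretch held 29 KO-only and 25 WT-only regions without KO replicate 2, and 16 and 32 without KO replicate 1. The stretch held 8 and 41 without WT replicate 1 and 16 and 38 without WT replicate 2. The rest held 46 and 43 without KO replicate 1 and 48 and 35 without KO replicate 2. It held 25 and 55 without WT replicate 1 and 40 and 40 without WT replicate 2. Under this looser rule the direction of the rest thus changed with the library left out, and that of the stretch was reversed without KO replicate 2 only. Split near its middle, the chromosome held 7 KO-only and 11 WT-only regions in bins 1 to 12, and 11 and 25 in bins 13 to 25.

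The bins differ greatly in gene number, and the classes stood differently against it. Bins held between 6 and 163 protein-coding genes, and bins 20, 21 and 24 held 163, 149 and 119. Over the 25 bins, the number of WT-only regions went with the number of genes (Pearson r = 0.680, Spearman rho = 0.538) and with the number of all regions (r = 0.707, rho = 0.608). The number of KO-only regions showed almost no such relation (r = −0.049 and rho = 0.024 with genes, r = −0.098 and rho = −0.064 with regions). These are descriptions over bins that share the same 4 libraries and differ in base composition. Bin 3, which had the most KO-only regions, held 10 genes, and bin 15 (70 to 75 Mb) held 127 genes with 1 region of each class.

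In bin 21 the 5 WT-only regions were linked to Ttc25, Naglu, Arl4d, Hdac5 and Ubtf, a link being the nearest gene end within 100 kb. The region at Ttc25, a gene of the docking complex for ciliary outer dynein arms, had pileups of 13 and 15 fragments in WT (chr11:100545510-100545810). The region at the start of Naglu, whose window is printed above, had 13 and 14 in WT. Both were absent from both KO lists, which says only that no peak was called there.

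The region inside Hdac5, a class IIa histone deacetylase, had 13 and 18 fragments in WT, and the start of Hdac5, 10761 bases away, was called in all 4 libraries (28 and 22 in KO, 21 and 32 in WT). The region in Ubtf, the ribosomal DNA transcription factor UBF, had 14 and 15 in WT and overlapped a start window of that gene. The region near Arl4d, a small GTPase of the ARF family, had 11 and 11 in WT and lay 33 bases from a region called in all 4 libraries. The single KO-only region of bin 21 lay near Gm11634 with 13 and 7 fragments in KO.

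In bin 24 the 4 WT-only regions were linked to Nt5c, Nup85, Llgl2 and Pgs1. Nt5c, a cytosolic nucleotidase, had 12 and 14 fragments in WT, and Nup85, a scaffold subunit of the nuclear pore, had 9 and 11. Llgl2, a cell polarity protein, had 16 and 11 in WT inside the gene. Pgs1, which makes a precursor of cardiolipin, had 9 and 14 at its start. Of these 4, the region at Nt5c passed −log10 q of 5 in both WT libraries and the other 3 did not.

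Pileups in regions of both classes were low. The 18 KO-only regions had between 7 and 18 fragments at the summit in the KO libraries (median 12.5), and the 36 WT-only regions had between 8 and 30 in the WT libraries (median 12). Over the 628 regions called in all 4 libraries the median was 25 and the range 7 to 254. When strength is the lower percentile of fold enrichment in the calling lists, the median was 12.4 for KO-only and 11.2 for WT-only regions. A single KO-only region (near Cpeb4) and 0 WT-only regions were above the middle of both lists.

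**Figure D2:**
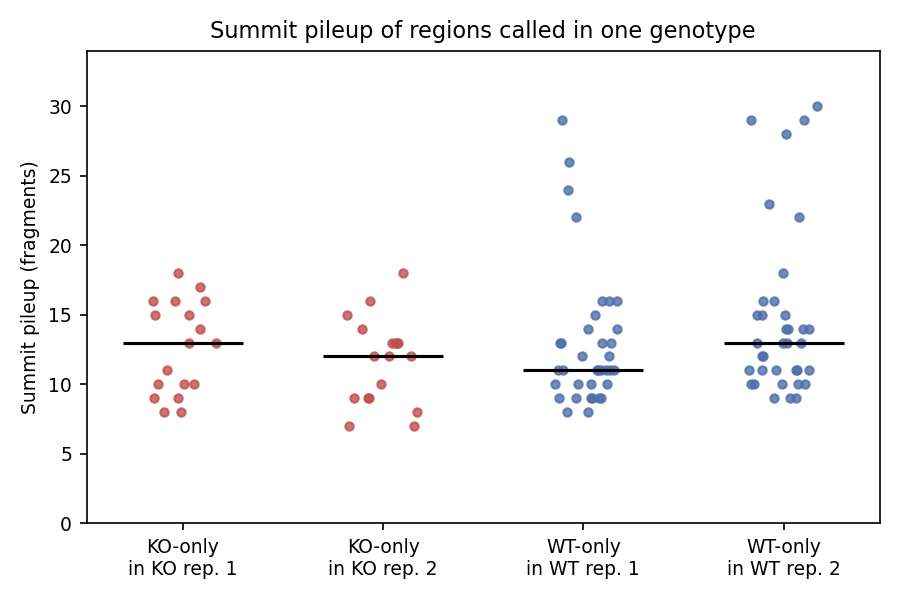
Summit pileup in fragments of each KO-only region in the KO libraries (red) and each WT-only region in the WT libraries (blue), with black lines at the medians of 13 and 12 in KO and 11 and 13 in WT. Most points of both classes lie in the same low range, and the highest are WT-only regions with up to 30 fragments.

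The strongest KO-only region was chr11:31843789-31844163, outside any gene, 26129 bases from the nearest end of Cpeb4. Cpeb4 encodes an RNA-binding protein that controls translation and acts in terminal erythroid differentiation. Its pileups were 18 and 16 fragments in KO. A region near Cobl, an actin nucleator, had 16 and 15 in KO, and the region at the Fbxl20 start printed above had 14 and 13. These were 3 of the 5 KO-only regions that passed −log10 q of 5 in both KO libraries, with a region 384444 bases from the nearest gene end, that of Vwc2 (16 and 13), and one inside Rap1gap2 (15 and 18), a regulator of the GTPase Rap1.

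The next KO-only regions by strength were linked to Hs3st3a1, which sulphates heparan (17 and 10 in KO), and Oxld1 (10 and 13), whose region covers the Ccdc137 start window. Then came Ap2b1, a subunit of the clathrin adaptor AP-2 (9 and 12), Vps54, a subunit of an endosome-to-Golgi tether (9 and 9), and Tom1l1, an endosomal adaptor (15 and 9). The lowest pileup called on the chromosome was 7 in each KO library, so several of these regions lay just above the limit of calling.

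Of the WT-only regions, the strongest lay inside Wipi1 (chr11:109587674-109588202), a phosphoinositide-binding protein of autophagy, with 29 and 28 fragments in WT. The start of Wipi1, 23048 bases away, was called in all 4 libraries with 93 and 84 in KO and 94 and 103 in WT. Hus1 had 11 and 16 in WT, Ypel2 had 11 and 13, and Rnf135 had 12 and 12. The region at Fn3k, a kinase that repairs glycated proteins, had 14 and 13. Glra1, a glycine receptor subunit of nerve cells, had 10 and 13 inside the gene, and Ankrd40 had 11 and 11. Of the 10 strongest linked WT-only regions, all 10 passed −log10 q of 5 in both WT libraries.

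KO-only and WT-only regions stood in different places relative to genes. A region was at a gene edge when it came within 1 kb of an end of a protein-coding gene, inside a gene when it overlapped one elsewhere, and outside otherwise. Of 18 KO-only regions, 3 were at an edge (16.7%), 6 inside and 9 outside. Of 36 WT-only regions, 20 were at an edge (55.6%), 11 inside and 5 outside. The median distance from the middle of a region to the nearest gene end was 15.3 kb for KO-only and 1.12 kb for WT-only regions. Start windows were overlapped by 3 of 18 KO-only and 14 of 36 WT-only regions, and by 426 of 628 shared ones.

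**Figure D3:**
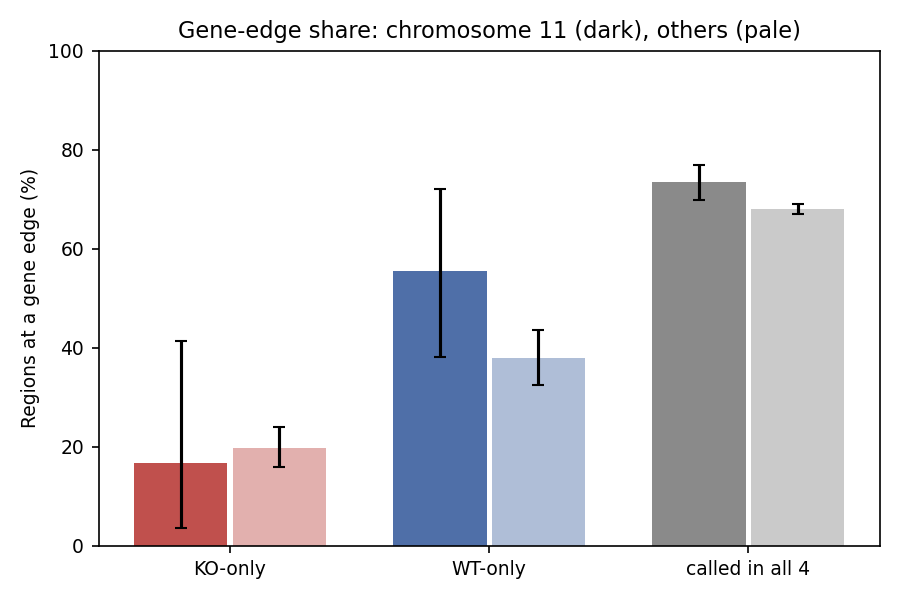
Percentage of KO-only, WT-only and shared regions at a gene edge, on chromosome 11 (dark bars) and on other chromosomes (pale bars), with 95% exact binomial intervals. The chromosome 11 shares were 16.7%, 55.6% and 73.4%, and the shares elsewhere 19.6%, 37.9% and 67.9%.

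Chromosome 11 regions of any kind lay at gene edges more often than those of other chromosomes. The share was 60.2% (639 of 1061) on chromosome 11 and 49.8% (7111 of 14267) elsewhere, and chromosome 11 ranked 1 of 21 chromosomes by it. Regions of these 4 libraries are not replicates, so the shares carry no test. At gene edges chromosome 11 held 3 KO-only and 20 WT-only regions among 639, while the other chromosomes held 78 and 117 among 7111. Inside genes the counts were 6 and 11 among 280 on chromosome 11, and 153 and 101 among 3903 elsewhere. Outside genes they were 9 and 5 among 142 on chromosome 11, and 166 and 91 among 3253 elsewhere. WT-only regions thus outnumbered KO-only ones at edges both on chromosome 11 and elsewhere, and KO-only regions outnumbered WT-only ones outside genes in both sets.

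WT-only regions lay closer to shared regions. The median gap to the nearest region called in all 4 libraries was 64.7 kb for KO-only and 16.5 kb for WT-only regions. Of 18 KO-only regions 0 lay within 2 kb of a shared region and 8 lay over 100 kb from one. Of 36 WT-only regions 7 lay within 2 kb and 3 lay over 100 kb away. With peaks within 2 kb of each other merged, chromosome 11 held 16 KO-only and 27 WT-only regions.

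**Figure D4:**
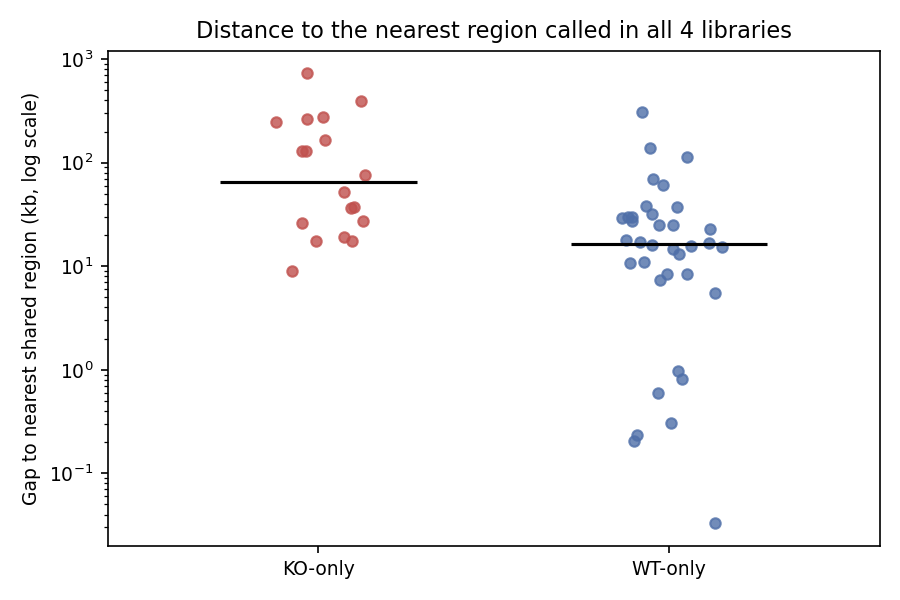
Gap in kb (log scale) from each KO-only (red) and WT-only (blue) region of chromosome 11 to the nearest region called in all 4 libraries, with black lines at the medians of 64.7 and 16.5 kb. The points under 2 kb are 7 WT-only regions.

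The 7 WT-only regions within 2 kb were linked to Spred2, Rnf145, Gm12248, Ube2g1, Phf12, Tob1 and Arl4d. Spred2 encodes an inhibitor of RAS to ERK signalling. Its WT-only region (chr11:19925334-19925890) had 15 and 15 fragments in WT, and the shared region at the Spred2 start, 814 bases away, had 21 and 24 in KO and 15 and 21 in WT. Tob1 encodes an antiproliferative protein that recruits a deadenylase. Its WT-only region had 24 and 29 fragments in WT and stood 237 bases from a shared region with 82 and 72 in KO and 77 and 82 in WT. Phf12, a reader in a SIN3 corepressor complex, had 22 and 22 in WT, 304 bases from a shared region with 59 and 53 in KO and 63 and 61 in WT. Ube2g1, a ubiquitin-conjugating enzyme, had 16 and 30 in WT, 205 bases from a shared region with 50 and 43 in KO and 48 and 52 in WT. After centring, the genotypes overlapped in the shared neighbours of Tob1, Phf12 and Ube2g1, and both KO libraries lay above both WT libraries in that of Spred2. Both KO libraries lay below both WT libraries in those of Rnf145 (12 and 12 in KO, 13 and 16 in WT) and Gm12248 (31 and 31, 35 and 59). The neighbour of Arl4d had 17 and 13 in KO and 9 and 13 in WT. Of all shared regions on the chromosome, 17.7% lay above and 21.7% below in this way.

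Summit pileup in the 628 regions called in all 4 libraries differed little between genotypes along the chromosome. Pileups were taken as log2(pileup + 1) and centred on each library's median over 8704 regions of all chromosomes. The median difference, KO minus WT, was −0.01 on chromosome 11 and 0.03 elsewhere, with −0.05 at 1 h and 0.01 at 2 h on chromosome 11. Over the 19 bins with at least 10 such regions, the median difference lay between −0.11 (bin 16) and 0.07 (bin 10). Over the same bins, the bin medians of the replicates of one genotype differed by −0.30 to 0.27 in KO and by −0.22 to 0.25 in WT (replicate 2 minus 1), which is another quantity than the median of differences.

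**Figure D5:**
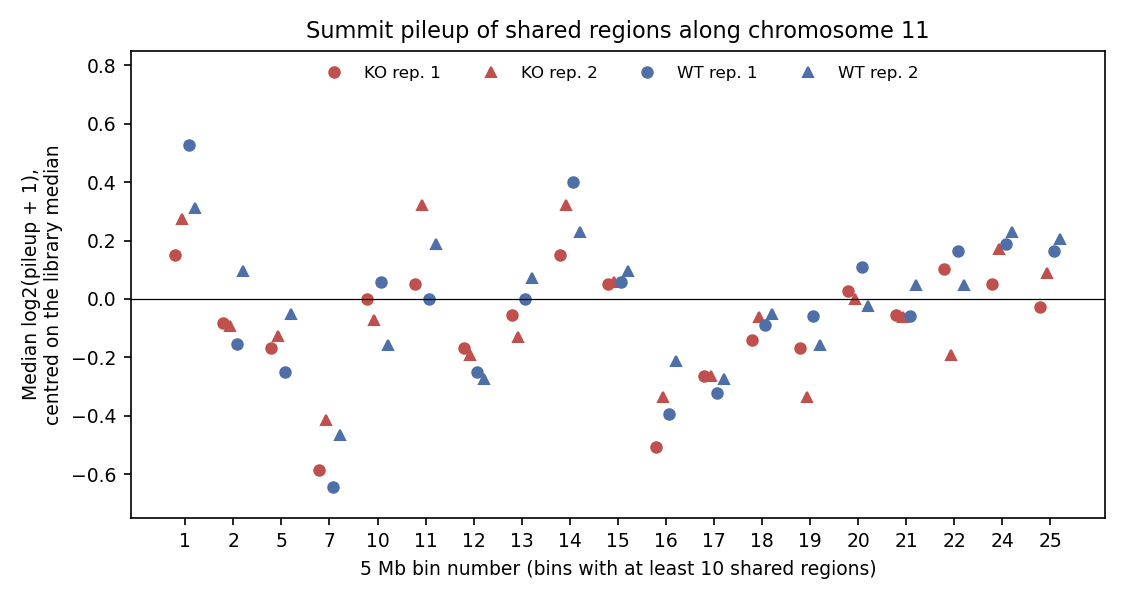
Median log2(pileup + 1) of shared regions in each bin with at least 10 of them, centred on the library median, for KO replicates 1 and 2 (red circle and triangle) and WT replicates 1 and 2 (blue circle and triangle). Bins move up and down together in all 4 libraries, as in bin 7, where the values lie between −0.64 and −0.42, and the genotypes do not separate in most bins.

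All 4 libraries shared the pattern along the chromosome. In bin 7 (30 to 35 Mb), which holds the alpha-globin locus, the centred medians were −0.58 and −0.42 in KO and −0.64 and −0.47 in WT. In bin 14 (65 to 70 Mb) they were 0.15 and 0.32 in KO and 0.40 and 0.23 in WT. Among the 19 bins, both KO medians lay below both WT medians in 5 (1, 13, 19, 24 and 25) and above both in 2 (12 and 17). Bins of other chromosomes were not counted in this way, so there is no background share and nothing is read from these counts. In bin 25 they were −0.03 and 0.09 in KO and 0.16 and 0.21 in WT, and in bin 13 they were −0.05 and −0.13 in KO and 0.00 and 0.07 in WT. In both bins the mean KO median lay below the mean WT median by more than either pair of replicates differed. In bin 12 the mean KO median lay above the mean WT median by more than either pair differed (−0.17 and −0.19 in KO, −0.25 and −0.27 in WT). The median of the region differences was −0.05 in bin 13 but 0.01 in bin 25 (−0.07 at 1 h, 0.09 at 2 h). It also had the opposite sign to the bin medians in bins 1 (0.04) and 17 (−0.01), and the same sign in bins 12, 19 and 24. Local background under the same summits, centred in the same way, differed between genotypes by between −0.09 (bin 14) and 0.05 (bin 1). Both KO background medians lay below both WT medians in 8 of the 19 bins and above both in 2. The median background difference, KO minus WT, was −0.03 on chromosome 11 and 0.004 elsewhere. The part of the background in the pileups was not tested.

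Region by region, with centred values, 111 of 628 (17.7%) had both KO libraries above both WT libraries and 136 (21.7%) had both below, beside 21.4% and 17.3% over all chromosomes. By limma with Benjamini-Hochberg adjustment, 0 of 8704 regions (0%) passed for KO against WT, so 0 passed on chromosome 11. At an unadjusted p below 0.05 there were 46 regions of 628 on chromosome 11 and 758 of 8704 (8.71%) over all. No other count model was run, because the values are not read counts.

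The region with the highest pileup on the chromosome lay 61097 bases from Axin2 (chr11:109011566-109012195), an inhibitor of Wnt signalling, outside any gene. It had 246 and 240 fragments in KO and 230 and 254 in WT, and the genotypes overlapped. Inside Sfi1, a centrosomal protein gene, a region had 212 and 185 in KO and 204 and 200 in WT and also overlapped, and its fold enrichment over local background was between 5.15 and 6.35, against 21.3 to 22.4 at the Axin2 region. A second region near Sfi1 had 151 and 120 in KO and 131 and 145 in WT. The Wipi1 start was next, and then the start of Usp32, a deubiquitinase, with 84 and 84 in KO and 85 and 99 in WT. None of the 5 differed by more than 0.09 on the log2 scale between genotype means.

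Among shared regions whose genotypes did not overlap, the largest difference upward was at a region near Slfn14, a ribosome-associated endonuclease of platelets and red cells. It had 31 and 21 fragments in KO against 15 and 15 in WT, a log2 difference of 0.81 ± 0.21 (SE, limma adjusted p = 0.363). The shared start of Sap30bp and Recql5, a DNA helicase, had 31 and 31 in KO against 16 and 24 in WT. A region inside Tex14 had 25 and 19 against 13 and 15, and one near Brca1, the recombination repair gene, had 25 and 15 against 12 and 14. These are 4 of the 5 largest upward differences.

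Downward, the edge of Vat1, a mitochondrial and vesicle membrane protein gene, had 19 and 20 fragments in KO against 35 and 36 in WT (−0.75 ± 0.19, limma adjusted p = 0.363). It stands in bin 21 with the Brca1 region, which moved the other way. The start of Mpdu1, which is needed for dolichol-linked sugar transfer, had 22 and 24 in KO against 35 and 47 in WT (−0.71 ± 0.20, limma adjusted p = 0.375). Aldh3a2, a fatty aldehyde dehydrogenase, had 25 and 12 in KO against 26 and 36 in WT, and without KO replicate 2 its log2 difference was −0.29 in place of −0.70. A region near Supt4a, a transcription elongation factor, had 17 and 17 against 28 and 30, and one in Kansl1, a subunit of a histone acetyltransferase complex, had 18 and 17 against 30 and 29. Scaled by each library's lowest background in place of its median, Vat1, Mpdu1 and Aldh3a2 passed limma (adjusted p = 0.030, 0.039 and 0.044). Their differences were then −0.99, −0.95 and −0.93, with the median of all regions at −0.21 under that scaling in place of 0.02. These were 3 of 628 regions on chromosome 11, beside 70 of 8704 that passed over all chromosomes, of which 65 were lower in KO.

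The alpha-globin locus holds genes at the heart of red cell identity. Of 10 genes of the locus and its neighbours, 5 had a region and 4 had one called in all 4 libraries, with 0 KO-only and 0 WT-only among 7 regions (1.70% and 3.39% of all chromosome 11 regions). With so few regions in each list, counts of 0 or 1 in this and the following lists are near those shares and say nothing about the lists. Introns of Nprl3, which hold known alpha-globin enhancers, carried 2 shared regions. The first (chr11:32245628-32246054) had 22 and 24 fragments in KO and 15 and 21 in WT, and the second (chr11:32250839-32251297) had 13 and 22 in KO and 14 and 18 in WT. The start of Mpg, a DNA glycosylase, had 12 and 11 in KO and 14 and 18 in WT. The region shared by Snrnp25, a spliceosome protein gene, and Il9r, a cytokine receptor gene, had 20 and 16 in KO and 20 and 28 in WT. After centring, both KO libraries lay above both WT libraries at the first Nprl3 region and below both at the Mpg start and the Snrnp25 region. The genotypes overlapped at the second Nprl3 region. Of all shared regions on the chromosome, 17.7% lay above and 21.7% below in this way, and nothing is read from these few. At the globin genes themselves a single peak at Hba-a2 was called, in KO replicate 1 with 7 fragments. Hba-a1 and Hba-a2 are near-identical copies, so reads there could be lost or split, and their values are uncertain.

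Of 4 red cell genes, Slc25a39, a mitochondrial carrier, had a start region with 36 and 33 fragments in KO and 35 and 30 in WT, and a second region at its edge with 35 and 37 in KO and 40 and 40 in WT. Nprl3 was the other one with a region, and Slc4a1 and Trim58 had none. Of 10 Hoxb genes, which pattern the body axis and are active in early blood progenitors, 0 had a region in any library. Of 8 genes of other blood lineages, 3 had a region and 2 had one in all 4 libraries, Itga2b and Itgb3, which encode the platelet fibrinogen receptor. Itga2b had 21 and 21 in KO and 15 and 28 in WT. No KO-only or WT-only region was linked to a gene of the alpha-globin, red cell, Hoxb or other lineage lists.

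Of 18 haematopoietic transcription factors, 13 had a region and 11 had one in all 4 libraries, with 0 KO-only and 0 WT-only among 29 regions. The start of Stat3, a cytokine-activated factor, had 60 and 54 fragments in KO and 48 and 65 in WT. The start of Nfe2l1, a stress-response factor, had 42 and 42 in KO and 39 and 39 in WT. Rel, an NF-kappa-B subunit, had 29 and 24 in KO and 31 and 29 in WT, and an intronic region of Mnt, a repressor that competes with MYC, had 66 and 61 in KO and 74 and 82 in WT. After centring, the genotypes overlapped at Stat3, Nfe2l1 and Rel, and both KO libraries lay below both WT libraries at the Mnt region, as 21.7% of shared regions on the chromosome did. Ikzf1, the lymphoid regulator Ikaros, had 3 shared regions, all with between 12 and 22 fragments, and the region at its start was called in WT replicate 2 alone.

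Of 18 chromatin regulators, 15 had a region and 11 had one in all 4 libraries, and the single exclusive region was the WT-only one in Hdac5. The edge of Usp22, the SAGA deubiquitinase, had 82 and 76 fragments in KO and 79 and 100 in WT. Smarcd2, a BAF remodeller subunit, had 47 and 51 in KO and 42 and 56 in WT. Suz12, a core subunit of PRC2, had 26 and 31 in KO and 34 and 41 in WT. Chd3, a relative of Chd7, had 29 and 23 in KO and 30 and 33 in WT inside the gene. The median log2 difference over the list's 11 shared regions was −0.04, beside −0.01 over chromosome 11.

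Of 15 cytokine signalling genes, 10 had a region and 9 had one in all 4 libraries, and the single exclusive region was the one at Spred2. Ppm1d, a phosphatase of the DNA damage response, had 30 and 39 fragments in KO and 35 and 43 in WT at its start. Map2k4, a kinase upstream of JNK, had 39 and 29 in KO and 41 and 33 in WT. Grb2, the adaptor between receptors and RAS, had 45 and 42 in KO and 47 and 46 in WT. The median log2 difference of the list was 0.00.

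All 11 genes of cell division and repair that are in the gene table had a region, and 9 had one in all 4 libraries. Their exclusive region was a WT-only one near Aurkb, a mitotic kinase, with 10 and 14 fragments in WT, and it did not pass −log10 q of 5. Ccng1, a cyclin induced by p53, had 44 and 40 in KO and 34 and 44 in WT. Rpa1, which binds single-stranded DNA, had 35 and 28 in KO and 24 and 37 in WT, and Cdc27, a subunit of the anaphase-promoting complex, had 27 and 35 in KO and 38 and 43 in WT. The median log2 difference of the list's 10 shared regions was 0.15. All 6 ribosomal protein genes had a shared region, with a median log2 difference of 0.05 and 0 exclusive regions. Rpl23 had 29 and 27 in KO and 25 and 29 in WT at its start.

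Of 83 miRNA hairpins on chromosome 11, 15 had a region within 2 kb, of which 8 were called in all 4 libraries (59.2% of all chromosome 11 regions) and 0 were KO-only or WT-only. Mir144 and Mir451a, which are abundant in red cells, were not among the 15. Near Mir142, which is expressed across blood cells, the region was called in WT replicate 2 only, with 15 fragments. The region 85 bases from Mir1934 was the Mpdu1 start described above.

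The labelled time was not used to choose the chromosome and could be tested, although it cannot be told apart from the replicate number. Regions called in both 2 h libraries alone numbered 19 on chromosome 11 (1.79%; 1.6% over all chromosomes), and in both 1 h libraries alone 14 (1.32%; 1.39%), so both shares were near the background. The share of nuclear peaks on chromosome 11 was 7.16% ± 0.0617 at 2 h and 7.09% ± 0.459 at 1 h (SD, n = 2 each; exact two-sided permutation p = 1, where 2 against 2 libraries cannot go below 0.333). The median log2 difference in pileup, 2 h minus 1 h, was 0.03 on chromosome 11. By limma with Benjamini-Hochberg adjustment 0 of 8704 regions (0%) passed, and at an unadjusted p below 0.05 there were 29 of 628 on chromosome 11 and 328 of 8704 (3.77%) over all. That fit had no genotype term, although each time held both genotypes. With genotype as a second term 0 of 8704 passed after adjustment. The unadjusted counts were then 44 of 628 on chromosome 11 and 486 of 8704 (5.58%) over all.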

How the data were processed

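ATAC-seq libraries of KO and WT G1ER cells (2 each) were grouped by their titles. The submitters' processing notes list Bowtie2 2.2.1 and MACS2 2.1.0 with no role, and the deposited peak names carry GRCm38. The authors deposited 1 list per library. Whether a control was used, how reads were shifted for the transposase cut, whether duplicates were removed and which threshold was set is not stated, and each could change which weak peaks are listed. Each deposited list gives a whole-number score, a fold enrichment (the ratio of pileup to local background, each plus 1), and −log10 p and −log10 q from the authors' caller. A missing call is not a measured 0.

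The whole pileup and background were recovered from fold and −log10 p (tolerance 0.001), and this step and the limma test were tested on simulated data. Regions were merged by any overlap and assigned to bins by their middle. Gene ends and windows came from RefSeq GRCm38.p6. limma 3.58.1 (R 4.3.3) was fitted to log2(pileup + 1) over 8704 regions. The fit of KO against WT had no replicate term, and that of 2 h against 1 h had no genotype term. Other steps used Python 3.11.15 with scipy 1.17.1.

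Named regions were the 10 strongest linked KO-only and WT-only regions, up to 5 of each at gene edges, all of the bins with the largest difference, the 5 highest pileups, the 5 largest non-overlapping differences each way and up to 4 genes per list. The members, lists and alternatives were chosen with earlier results of these data known. Of the regions that rule picks, 2 are not reported here. Regions named outside that rule were chosen after their values were seen.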

Additional observations from a re-analysis of the deposited data

Results flagged for a closer look

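Several genotype differences pointed one way at 1 h and the other way at 2 h, with 1 library per genotype at each time, and in none of them was the difference between times tested. All are KO minus WT, and the value given is the 2 h difference minus the 1 h difference. For peaks on chromosome 11 it was −78 (−58 at 2 h, 20 at 1 h), and for regions called it was −84 (−63 at 2 h, 21 at 1 h). For the median log2 pileup difference of shared regions it was 0.0568 (0.01 at 2 h, −0.05 at 1 h). Among the regions of highest pileup it was 0.21 at the region linked to Axin2, 0.22 at the region inside Sfi1 (nearest gene end Gm51877) and 0.17 at the Usp32 start (1700125H20Rik). For the medians of the gene lists it was 0.19 for the alpha-globin cluster and its neighbours, 0.19 for haematopoietic transcription factors, −0.42 for other blood lineages, 0.57 for red cell genes and 0.30 for ribosomal protein genes. The red cell list rests on 4 shared regions and the list of other lineages on 3.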

How the results depend on the processing

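KO-only regions stayed fewer than WT-only regions on chromosome 11 in every alternative but 1. A −log10 q threshold of 5 for both calling libraries left 5 KO-only and 17 WT-only regions, and merging peaks within 2 kb, chosen after seeing the data, gave a difference of −11 in place of −18. Leaving out 1 library at a time, which loosens both classes, gave 33 to 77 KO-only and 60 to 96 WT-only regions. The difference then lay between −63 and 17, and the single reversal, 17, came without KO replicate 2. Bin 21 kept a difference of −6 to −3 when a library was left out, but the largest difference then moved or was tied. It was −14 in bin 24 without WT replicate 1 and −8 in bin 20 without WT replicate 2. It was −5 in bins 11 and 20 without KO replicate 1, and −3 in bins 1 and 21 without KO replicate 2. Other bin widths, bin starts, thresholds and merging rules put it in bins starting between 97.5 and 115 Mb. Scaling by the lowest background gave 3 calls of 628 on chromosome 11 for KO against WT, beside 70 of 8704 over all chromosomes. On chromosome 11 it gave a median KO minus WT of −0.25 and a median 2 h minus 1 h of −0.16. Summits within 250 bp gave −0.0198 for 2 h minus 1 h. Without 1 library the median KO minus WT lay between −0.0423 and 0.00914, and the median 2 h minus 1 h between 0.01 and 0.04. The gene-edge share was 54.7% within 500 bp and 63.8% for peaks past a −log10 q of 5. The causes were not tested. The centred difference of replicate 1 minus 2 in KO had a correlation of 0.00 with that in WT over 8704 regions. At such low pileups this cannot tell whether the libraries were paired. With a replicate block limma called 2 regions over all chromosomes and 0 on chromosome 11, and the median of −0.01 stays the same by design. Of 144 values of the 15 named shared regions, 131 moved by less than the replicate spread. Values without 1 library or with a replicate block could not move by more than that spread, so this count says little about stability. Library depth is unknown, and a call missing from 1 list was not detectable at that library's depth.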
